A study of Mus musculus with 4 samples.

Results

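The nuclei described here are excitatory neurons of mouse cortex with much Rorb RNA, taken as layer 4/5 intratelencephalic (L4/5 IT) neurons. They were chosen by unique molecular identifiers (UMIs, each standing for 1 captured RNA molecule) of 10 genes. A nucleus needed at least 3 UMIs of Slc17a7, the vesicular glutamate transporter of cortical excitatory neurons, at most 1 UMI of the GABA-synthesis genes Gad1 and Gad2 together, and at least 8 UMIs of Rorb. It also had to have no UMI of Otof, at most 3 of Deptor, Rxfp2 and Adgrg6 together, and at most 4 each of Tshz2 and Foxp2, which are genes used to mark other cortical layers or projection classes. In all, 2744 of the 26350 kept nuclei met the rule, and 11287 further nuclei met only its Slc17a7 and Gad limits and are called other excitatory nuclei below. Because these 10 genes chose the nuclei, their levels are a description and were not tested.

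Single-nucleus RNA sequencing was done on cortex of 4 wild-type female C57BL/6JRj mice about 12 weeks old: 2 pregnant mice killed at day E13.5 after timed mating and 2 non-pregnant controls, with 1 library from each replicate. Both groups were of the same inbred strain and received the same nuclear isolation, which used actinomycin D, a transcription inhibitor. The sources used here do not name the area of cortex, so an effect of pregnancy and a difference between groups in the area dissected cannot be told apart in any comparison of the groups. The comparison between groups addresses what differs in the cortex at mid-gestation.

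Intratelencephalic neurons send their axons within the cortex and to the striatum, and in sensory areas those of layer 4 are a main target of thalamic axons. Rorb encodes a nuclear receptor that acts as a transcription factor and is needed for the normal grouping of layer 4 neurons in the somatosensory barrels. Rspo1 encodes a secreted R-spondin, an agonist of Wnt signalling through Lgr receptors, and Whrn encodes whirlin, a PDZ scaffold protein known from hair cells and photoreceptors.

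The 4 libraries held between 97875766 and 116860425 UMIs, with medians of 13187.5 to 17723 UMIs per barcode and the highest median in non-pregnant replicate 2. Between 6262 and 6845 nuclei per library were kept. Across the libraries 109 barcodes occurred in more than 1 library. Of the L4/5 IT Rorb nuclei, 20 carried such a barcode, and 0 shared it with another L4/5 IT Rorb nucleus.

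The L4/5 IT Rorb nuclei numbered 491 and 478 in pregnant replicates 1 and 2, against 694 and 1081 in non-pregnant replicates 1 and 2. Their median depth was 16458 and 16452.5 UMIs in pregnant libraries, against 14609.5 and 18595 in non-pregnant libraries. Median detected genes were 4343 and 4489 in pregnant libraries, against 4077 and 4560 in non-pregnant libraries. Non-pregnant replicate 2 was thus the deepest library for these nuclei and non-pregnant replicate 1 the shallowest. A median L4/5 IT Rorb nucleus held 22 and 20 Rorb UMIs in pregnant libraries, against 16 and 20 in non-pregnant libraries, and the highest single nucleus held 146.

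These nuclei made up 7.49% and 7.15% of kept nuclei in pregnant libraries, against 10.1% and 17.3% in non-pregnant libraries. The 95% Wilson intervals, which cover counting error only, were 6.88 to 8.15% and 6.56 to 7.79% in pregnant libraries and 9.45 to 10.9% and 16.3 to 18.2% in non-pregnant libraries. The 2 groups did not overlap, and the 2 non-pregnant libraries lay further from each other than the lower of them lay from either pregnant library. The mean was 7.32% ± 0.241 in pregnant and 13.7% ± 5.04 in non-pregnant libraries (SD, n = 2 each), a log2 ratio of -0.90. An exact two-sided permutation test over libraries gave p = 0.333, the smallest value that 2 libraries against 2 allow. Without non-pregnant replicate 2 the log2 ratio was -0.47, and without non-pregnant replicate 1 it was -1.24.

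Of excitatory nuclei alone, L4/5 IT Rorb nuclei were 15.4% and 15.1% in pregnant libraries, against 18.2% and 28.0% in non-pregnant libraries, a log2 ratio of -0.60. A rule on raw UMIs selects more nuclei in deeper libraries, so nuclei were also thinned to 10000 UMIs each, with shallower nuclei left out. The rule then took 4.46% and 4.64% of thinned nuclei in pregnant libraries, against 6.50% and 9.84% in non-pregnant libraries. With the Rorb minimum lowered to 4 UMIs on thinned nuclei, the shares were 6.23% and 7.38% in pregnant libraries, against 10.6% and 14.5% in non-pregnant libraries. Each of these settings kept both pregnant libraries below both non-pregnant libraries.

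**Figure D1:**
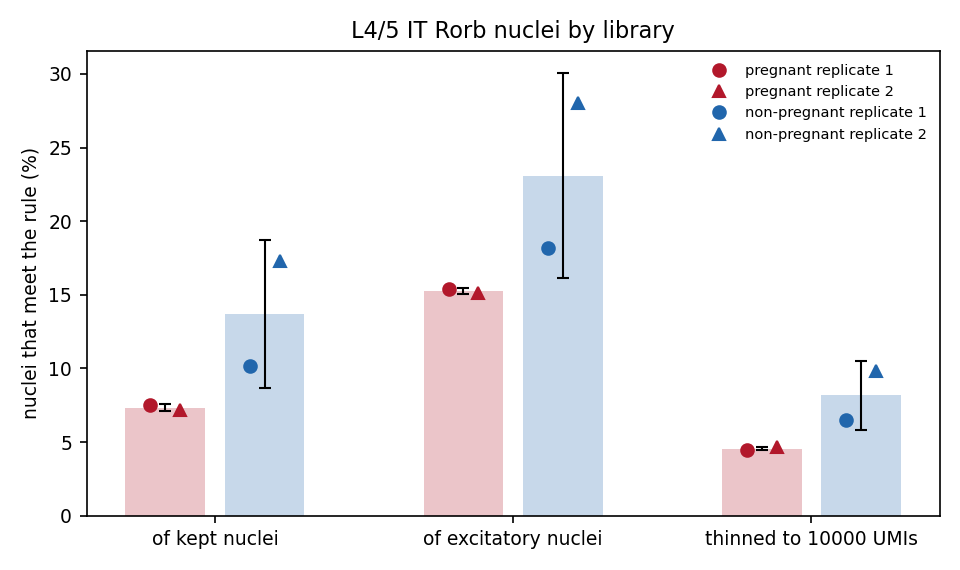
Share of nuclei that met the L4/5 IT Rorb rule (y axis, percent) among kept nuclei, among excitatory nuclei, and among nuclei thinned to 10000 UMIs. Points are libraries, bars are group means and whiskers are SD (n = 2 each); the kept-nuclei shares were 7.49% and 7.15% in pregnant libraries, below the 10.1% and 17.3% of non-pregnant libraries.

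The limits on other layers' genes removed unequal numbers of nuclei. Among excitatory nuclei with at least 8 Rorb UMIs, the Tshz2 limit was exceeded by 58 of 641 and 65 of 648 nuclei in pregnant libraries, against 21 of 822 and 37 of 1315 in non-pregnant libraries. That was 9.05% and 10.0% in pregnant libraries, against 2.55% and 2.81% in non-pregnant libraries. Tshz2 encodes a zinc finger transcription factor and is a marker of near-projecting neurons. With no Tshz2 limit the share of kept nuclei was 8.04% and 7.91% in pregnant libraries, against 10.3% and 17.7% in non-pregnant libraries. The Otof, Deptor group and Foxp2 limits were exceeded by 27 to 45, 71 to 153 and 15 to 26 nuclei per library.

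Nuclei just inside and just outside the Rorb minimum were alike in depth. The 301 nuclei with 8 or 9 Rorb UMIs had a median of 15291 UMIs, 33.2% held Rspo1, and 17.0 to 27.2% per library held Whrn. The 357 nuclei with 6 or 7 Rorb UMIs that met every other limit had a median of 15173 UMIs, 25.8% held Rspo1, and 10.1 to 18.6% per library held Whrn. Both markers were thus present on either side of the minimum.

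Rspo1 and Whrn, which the rule did not use, were checked as markers of the label. At least 1 Rspo1 UMI was found in 36.0 to 41.0% of L4/5 IT Rorb nuclei across the 4 libraries, against 7.10 to 9.82% of other excitatory nuclei and 7.44 to 8.89% of nuclei that were not excitatory. Whrn was found in 39.3 to 49.4% of L4/5 IT Rorb nuclei, against 7.01 to 11.2% of other excitatory nuclei and 15.6 to 22.8% of nuclei that were not excitatory. Median depths of other excitatory nuclei were 15560.5 to 21439.5 UMIs, and those of nuclei that were not excitatory were 8589 to 9960.5. After thinning to 10000 UMIs, Rspo1 was found in 22.7 to 29.4% of L4/5 IT Rorb nuclei, against 3.99 to 6.73% of other excitatory and 8.29 to 9.80% of nuclei that were not excitatory. The thinned Whrn shares were 28.6 to 38.4% of L4/5 IT Rorb nuclei, against 4.54 to 7.36% and 15.8 to 20.2%. In every library the L4/5 IT Rorb share was the highest of the 3 classes for both genes. Scnn1a, a sodium channel subunit that marks layer 4 neurons of primary sensory areas, was found in 3.67 to 5.74% of L4/5 IT Rorb nuclei, against 0.320 to 1.97% of other excitatory nuclei.

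**Figure D2:**
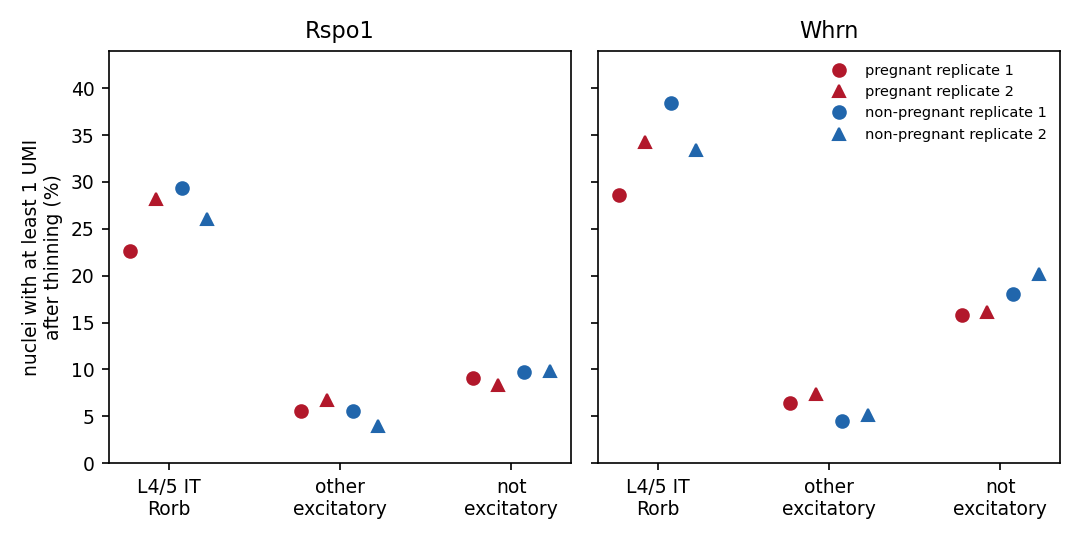
Percent of nuclei with at least 1 UMI of Rspo1 (left) and Whrn (right) after thinning each nucleus to 10000 UMIs, by class of nucleus on the x axis; each point is a library. L4/5 IT Rorb nuclei stood highest in every library, at 22.7 to 29.4% for Rspo1 and 28.6 to 38.4% for Whrn.

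Within the L4/5 IT Rorb nuclei, both markers were more frequent where Rorb was high. Among thinned nuclei, Whrn was found in 19.5% of the 694 with up to 7 Rorb UMIs, in 33.9% of the 1096 with 8 to 15, and in 46.9% of the 781 with 16 or more. Rspo1 was found in 18.3%, 28.1% and 32.0% of the same nuclei. Each library followed this order for both genes, except pregnant replicate 2, where Rspo1 was most frequent at 8 to 15 Rorb UMIs. Whrn was found at similar shares in nuclei with and without Rspo1. In pregnant replicates 1 and 2, Whrn was found in 33.0% and 36.0% of thinned nuclei with Rspo1 and in 27.4% and 33.6% of those without it. In non-pregnant replicates 1 and 2 these shares were 36.8% and 37.8% with Rspo1 and 39.1% and 31.8% without it. Between 43.0 and 56.2% of thinned nuclei held neither gene.

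Other cell types were checked by the summed CPM, UMI counts scaled to 1000000 per library sum, of their marker lists, with the genes of the rule left out. The 11 remaining L4/5 IT identity genes summed to 1557 and 1524 CPM in pregnant and 1562 and 1421 CPM in non-pregnant L4/5 IT Rorb sums, which was 0.51 to 0.75 log2 above other excitatory nuclei. Kcnh5 alone gave 706 to 796 CPM. Il1rapl2 of this list was below other excitatory nuclei in all 4 libraries. It stood at 328 and 371 CPM in pregnant and 358 and 282 CPM in non-pregnant L4/5 IT Rorb sums. Other excitatory sums held 670 and 471 CPM of it in pregnant and 478 and 499 CPM in non-pregnant libraries. Hsd11b1 was below in pregnant replicate 1 and Lmo3 in pregnant replicate 2, and the rest of the list was above throughout. The marker sums of L5 ET (extratelencephalic), L5 IT, L5/6 NP (near-projecting) and L6 IT neurons were each below other excitatory nuclei in all 4 libraries. Of their genes, Slco2a1 (L5 ET), Hsd11b1 (L5 IT) and Slc23a3 (L6 IT) were above in some libraries and below in others. L5 IT markers summed to 52.9 and 46.2 CPM in pregnant and 32.9 and 28.6 CPM in non-pregnant L4/5 IT Rorb sums, and L6 IT markers to 251 and 213 CPM in pregnant and 157 and 109 CPM in non-pregnant sums. The sum of L2/3 IT markers, which include Cux2 of both layers, was 0.22 to 0.39 log2 above other excitatory nuclei. Pdzrn3 gave 726 to 804 CPM of its 1276 to 1361 CPM. In all 4 libraries Pdzrn3 and Cux2 were above, and Lamp5, Wfs1, Stard8 and Agmat below. Rasgrf2, Calb1 and Rrad were above in some libraries and below in others. The sum of L6 CT (corticothalamic) markers was below in both pregnant libraries and above in both non-pregnant libraries. Of its genes, Syt6, Rprm, Tle4 and Crym were below in all 4 libraries. In non-pregnant libraries Hs3st4 stood at 444 and 519 CPM in L4/5 IT Rorb sums, against 323 and 391 CPM in other excitatory sums.

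Markers of cells that are not excitatory neurons were detected in the L4/5 IT Rorb sums. Inhibitory markers other than Gad1 and Gad2 summed to 66.0 and 60.5 CPM in pregnant and 112 and 49.8 CPM in non-pregnant L4/5 IT Rorb sums, against 1629 to 2566 CPM in nuclei that were not excitatory. The highest value, in non-pregnant replicate 1, came from Adarb2, a marker of inhibitory neurons of caudal origin, at 53.1 CPM there. Oligodendrocyte markers summed to 147 and 131 CPM in pregnant and 122 and 85.9 CPM in non-pregnant sums. Microglia markers summed to 44.7 and 47.4 CPM in pregnant and 52.4 and 46.0 CPM in non-pregnant sums, vessel markers to 3.47 and 6.46 CPM in pregnant and 2.78 and 2.55 CPM in non-pregnant sums, and OPC markers to 8.40 and 7.44 CPM in pregnant and 6.05 and 4.15 CPM in non-pregnant sums. Astrocyte markers summed to 636 and 642 CPM in pregnant and 717 and 581 CPM in non-pregnant sums, against 695 to 838 CPM in nuclei that were not excitatory and 396 to 439 CPM in other excitatory nuclei. Most of it was Slc1a2, a glutamate transporter gene, at 562 to 688 CPM in L4/5 IT Rorb sums, against 553 to 646 CPM in nuclei that were not excitatory, while Aqp4, the astrocyte water channel, stood at 0.491 to 3.61 CPM, against 4.63 to 10.4 CPM. Thalamic and subcortical markers summed to 19.1 and 29.6 CPM in pregnant and 20.4 and 26.4 CPM in non-pregnant L4/5 IT Rorb sums, against 9.14 to 16.9 CPM in other excitatory and 80.1 to 111 CPM in nuclei that were not excitatory. Slc17a6, a vesicular glutamate transporter gene of that list, was higher in L4/5 IT Rorb sums, at 15.5 to 23.6 CPM, than in other excitatory sums, at 6.92 to 12.6 CPM, and Gbx2, a thalamic transcription factor gene, had 0 UMIs in all 4 L4/5 IT Rorb sums and was at 0 CPM in nuclei that were not excitatory.

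The genes that stood highest in L4/5 IT Rorb sums over other excitatory sums are given as a description, since the rule chose these nuclei. Of 5515 genes with at least 20 CPM in every L4/5 IT Rorb sum, 47 were at least 1 log2 unit higher than in other excitatory sums in all 4 libraries. The log2 ratios below were taken after adding 1 CPM to both values. Ankfn1, an ankyrin-repeat gene, led with 97.3 and 76.9 CPM in pregnant and 79.6 and 89.7 CPM in non-pregnant L4/5 IT Rorb sums. Other excitatory sums held 8.59 and 8.94 CPM of it in pregnant and 10.3 and 13.7 CPM in non-pregnant libraries, so its lowest log2 ratio was 2.63. Rorb itself stood at 1424 and 1315 CPM in pregnant and 1130 and 1160 CPM in non-pregnant L4/5 IT Rorb sums, against 119 and 128 CPM in pregnant and 99.1 and 147 CPM in non-pregnant other excitatory sums.

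Several of the leading genes encode proteins of the extracellular matrix and cell surface. Col8a1, a collagen chain, had log2 ratios of 2.22 to 2.66 over the 4 libraries, and Lama4, a laminin chain, 1.60 to 1.98. Pamr1, a secreted peptidase-domain protein, had ratios of 1.82 to 2.01, and Adam33, a membrane metalloprotease, 1.63 to 2.51. Sdk1, an immunoglobulin-domain adhesion protein known from the retina to guide synaptic layering, had 1.45 to 1.50, one of the narrowest ranges among the 15 genes.

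Others act in excitability and synapses. Kcnh5, a voltage-gated potassium channel of the EAG family, stood at 796 and 717 CPM in pregnant and 706 and 723 CPM in non-pregnant L4/5 IT Rorb sums, with ratios of 1.76 to 1.84. Shisa6, an auxiliary subunit of AMPA receptors, had ratios of 1.92 to 2.43. Grik1, the kainate receptor subunit GluK1, had ratios of 1.49 and 1.88 in pregnant libraries, against 2.66 and 2.60 in non-pregnant libraries. Grik1 had the widest range of ratios of the 15, and stood at 137 and 251 CPM in pregnant and 239 and 228 CPM in non-pregnant L4/5 IT Rorb sums, with pregnant replicate 1 apart from the rest. Pld5, a phospholipase D family member, had ratios of 2.28 to 2.58, Rcan2, a regulator of calcineurin, 1.77 to 2.12, Myo16, an unconventional myosin, 1.68 to 1.75, and Tafa2, a secreted chemokine-like protein, 1.46 to 1.91. The 2 markers of the label were among the 15, with Whrn at 2.15 to 2.88 and Rspo1 at 1.96 to 2.57.

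**Figure D3:**
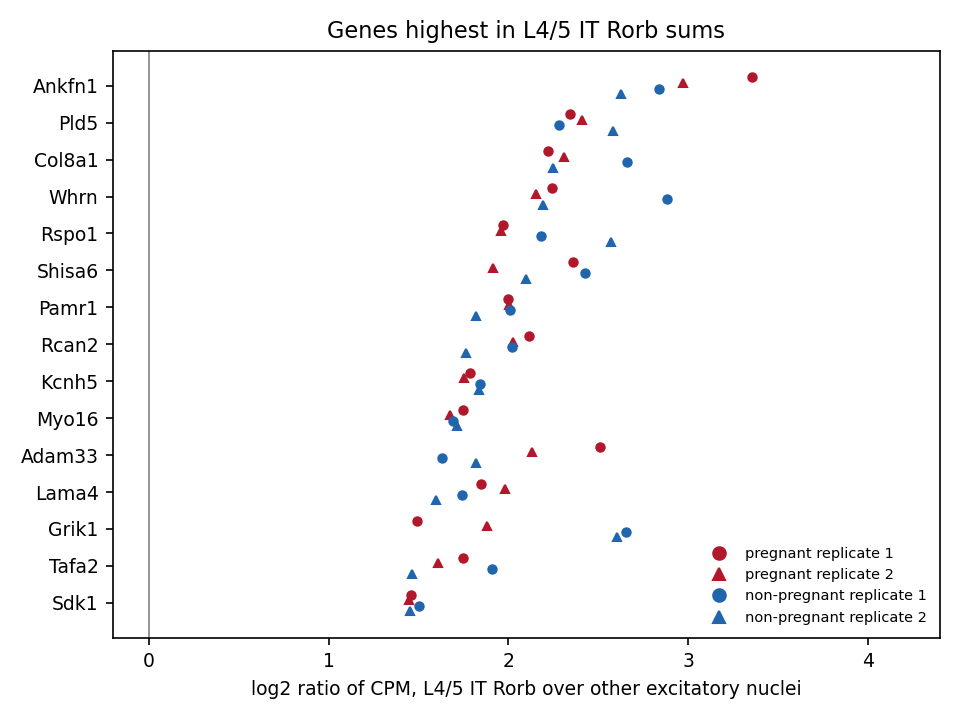
Log2 ratio of CPM (x axis, 1 CPM added to both values) in L4/5 IT Rorb over other excitatory sums for the 15 genes with the largest lowest ratio; each point is a library. Every point lies above 1, from 1.45 for Sdk1 to 3.36 for Ankfn1.

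Nuclei with and without a detected Rspo1 UMI were compared within each library to describe variation among the L4/5 IT Rorb nuclei. Rspo1 was detected in 177 and 180 nuclei of pregnant replicates 1 and 2, against 279 and 443 nuclei of non-pregnant replicates 1 and 2. Median depth was 17053 and 14310 UMIs with Rspo1 and 16312.5 and 17041.5 without it in pregnant libraries, and 14407 and 17604 with it and 14724 and 19188 without it in non-pregnant libraries. Genes higher in nuclei without Rspo1 differed more than genes higher in nuclei with it. Of 5460 genes with at least 20 CPM on the Rspo1-negative side in every library, 18 were at least 0.5 log2 higher there in all 4 libraries. Apart from Rspo1 itself, 0 of 5408 genes were that much higher with Rspo1.

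Plcxd3, a phospholipase C domain gene, stood at 13.1 and 19.8 CPM with Rspo1 against 41.7 and 46.0 CPM without it in pregnant libraries. In non-pregnant libraries it stood at 9.42 and 12.7 CPM with Rspo1 against 64.1 and 30.9 CPM without it, and the log2 ratio ran between -2.64 and -1.18 over the 4 libraries. Etv1, an ETS transcription factor used as a marker of layer 5, had ratios between -1.59 and -0.87. Il1rapl2, a synaptic receptor of the interleukin-1 receptor family, had ratios between -1.76 and -0.77, and Spon1, a secreted extracellular protein, between -2.04 and -0.93. Ptprm, a receptor tyrosine phosphatase, Tafa1, a secreted chemokine-like protein, Raver2, an RNA-binding protein, and Gabrg3, a GABA-A receptor subunit, completed the 8 genes, with upper ratios of -0.87, -0.80, -0.77 and -0.71. On the other side, Cux1, a transcription factor of upper-layer neurons, was higher with Rspo1 by 0.32 to 0.66. Nell1, a secreted protein with EGF-like repeats, was higher by 0.41 to 0.64, and Adam33 by 0.37 to 0.78. Lmo3, a LIM-only transcriptional regulator, and Tbr1, a T-box factor of deep layers, were each higher by at least 0.28, as were Mcc, Rmst and Shisa6.

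The raw UMIs of the L4/5 IT Rorb nuclei were summed per library and compared between pregnant and non-pregnant mice. The sums held 9520967 and 9136636 UMIs in pregnant libraries, against 12231857 and 22386556 in non-pregnant libraries. By quasi-likelihood in edgeR, adjusted after Benjamini and Hochberg, 82 of 14811 genes tested passed an adjusted p of 0.05, which is 0.554% of those tested. They comprised 53 genes that rose (0.358%) and 29 that fell (0.196%) in pregnant mice. By the same test, 1299 of the 14811 had an unadjusted p under 0.05. In all 82 the 2 pregnant values did not overlap the 2 non-pregnant values, as was so for 38.4% of all genes tested. The median log2 fold change over all genes tested was 0.00, and called genes changed by 0.41 to 3.49 log2 units. Values of single genes in the following paragraphs are CPM with TMM-normalised library sizes, except those of Tshz2. The Tshz2 values and the summed levels of marker lists, haemoglobin genes and mitochondrial transcripts are CPM without that normalisation. Every adjusted p is from that edgeR test, unless it is given by DESeq2 or for the difference from other excitatory nuclei. Each SE is the absolute log2 fold change divided by the square root of the F statistic of the edgeR test. With pregnant replicate 2 left out 29 genes were called, 17 of them among the 82, and with pregnant replicate 1 left out 66, with 36 among the 82. Without non-pregnant replicate 1 and without non-pregnant replicate 2 the counts were 448 and 274. Of the 37 called genes named in the text, 22 did not pass without pregnant replicate 2, 13 without pregnant replicate 1 and 3 without non-pregnant replicate 2. The 12 that passed with each library left out in turn were Luzp2, Hbb-bs, Tox, Norad, Gda, Pde1a, Adra1a, Ldb2, Etv1, Grm8, Sdk1 and Nell1.

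Tox, an HMG-box transcription factor known from lymphocytes and neural progenitors, rose to 214 and 223 CPM in pregnant libraries, against 113 and 128 CPM in non-pregnant libraries. Its log2 fold change was 0.86 (SE 0.0812, adjusted p = 6.08e-04). Norad, a long noncoding RNA that binds Pumilio proteins, stood at 38.7 and 33.5 CPM in pregnant libraries, against 15.8 and 14.3 CPM in non-pregnant libraries, a log2 fold change of 1.27 (SE 0.123, adjusted p = 6.29e-04). For both genes the pregnant libraries lay well above the non-pregnant ones. Both genes kept their call in every setting tried, including nuclei with and without Rspo1 and each library left out.

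Luzp2, a leucine zipper gene, stood at 61.5 and 73.7 CPM in pregnant libraries, against 30.9 and 28.1 CPM in non-pregnant libraries. Its log2 fold change was 1.20 (SE 0.109, adjusted p = 6.08e-04). It did not pass when the Rorb minimum was 12 UMIs (adjusted p = 0.581), or in nuclei with Rspo1 (0.487) or without it (0.739) taken alone, although its direction was the same in all 3.

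Genes of neurotransmission and intracellular signalling were among those that rose. Grin3a, the NMDA receptor subunit GluN3A, averaged 16.5 ± 0.715 CPM in pregnant and 6.41 ± 1.24 CPM in non-pregnant libraries (SD, n = 2 each; log2 fold change 1.39, adjusted p = 0.00308 by edgeR), and it did not pass without pregnant replicate 2 or with a Rorb minimum of 5 UMIs. Adra1a, the alpha-1A adrenergic receptor, stood at 28.3 and 28.5 CPM in pregnant libraries, against 14.7 and 13.6 CPM in non-pregnant libraries (1.01, adjusted p = 0.00302). The 2 values of each group were close for Adra1a, with SDs of 0.164 CPM in pregnant and 0.836 CPM in non-pregnant libraries. Pde1a, a calmodulin-dependent phosphodiesterase that breaks down cyclic nucleotides, averaged 640 ± 39.5 CPM in pregnant and 395 ± 26.1 CPM in non-pregnant libraries (SD, n = 2 each; log2 fold change 0.70). Gda, the guanine deaminase cypin that affects dendrite branching, averaged 144 ± 9.07 CPM in pregnant and 86.3 ± 7.10 CPM in non-pregnant libraries (0.74). Grm8, a presynaptic metabotropic glutamate receptor, stood at 182 and 138 CPM in pregnant libraries, against 89.0 and 81.7 CPM in non-pregnant libraries (0.91, adjusted p = 0.0347), and did not pass with a Rorb minimum of 5 UMIs or in nuclei without Rspo1.

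Etv1 and Ldb2, which act in transcription, were among the genes that rose. Etv1 stood at 44.2 and 35.0 CPM in pregnant libraries, against 18.4 and 19.9 CPM in non-pregnant libraries (log2 fold change 1.04, adjusted p = 0.00308). Within nuclei that had Rspo1, where Etv1 was lower in every library, it did not pass (adjusted p = 0.176), nor after thinning to 10000 UMIs (0.0548). Ldb2, a cofactor of LIM-domain transcription factors, averaged 181 ± 21.5 CPM in pregnant and 100.1 ± 10.2 CPM in non-pregnant libraries (SD, n = 2 each; 0.86), and did not pass with a Rorb minimum of 5 UMIs (adjusted p = 0.0945).

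The genes that fell in pregnant mice included Sdk1, Nell1 and Adam33. Sdk1, one of the 15 genes highest in L4/5 IT Rorb sums, stood at 233 and 220.1 CPM in pregnant libraries, against 364 and 383 CPM in non-pregnant libraries. Its log2 fold change was -0.72 (SE 0.0754, adjusted p = 0.00114). Nell1 stood at 501 and 439 CPM in pregnant libraries, against 738 and 783 CPM in non-pregnant libraries (-0.69, adjusted p = 0.00308). Adam33 stood at 72.2 and 72.6 CPM in pregnant libraries, against 108 and 113 CPM in non-pregnant libraries (-0.61, adjusted p = 0.00339), and did not pass without pregnant replicate 2 (adjusted p = 0.0532). Of the 15 genes highest in L4/5 IT Rorb sums, 0 rose (1 at an unadjusted p under 0.05, and 0 by DESeq2) and 2 fell, Sdk1 and Adam33. The median log2 fold change of the 15 was -0.16. Over all genes tested, 0.358% rose and 0.196% fell.

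Another 7 genes that fell were named by the same rule. Hgf, hepatocyte growth factor, the ligand of the receptor Met, averaged 27.1 ± 2.16 CPM in pregnant and 45.1 ± 1.11 CPM in non-pregnant libraries (SD, n = 2 each; log2 fold change -0.73). Abi3bp, an extracellular matrix protein, stood at 35.3 and 40.2 CPM in pregnant libraries, against 62.3 and 79.9 CPM in non-pregnant libraries (-0.92). Tenm1, a teneurin adhesion protein, had a log2 fold change of -0.46, and Ccdc3, a secreted coiled-coil protein, of -0.85. Inside the cell, Spred2, an inhibitor of Ras signalling to MAP kinase, had a log2 fold change of -0.55, Inf2, an actin-regulating formin, of -0.80, and Cdyl2, a chromodomain protein, of -0.76. The adjusted p of these 7 genes ran from 0.00583 for Cdyl2 to 0.0217 for Tenm1 by edgeR, and without pregnant replicate 2 none of the 7 passed. Abi3bp also failed without pregnant replicate 1 (adjusted p = 0.0589), with a Rorb minimum of 12 UMIs and in nuclei without Rspo1, Ccdc3, Tenm1 and Inf2 in nuclei with Rspo1, Inf2 with a Rorb minimum of 12 UMIs and Cdyl2 with one of 5.

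**Figure D4:**
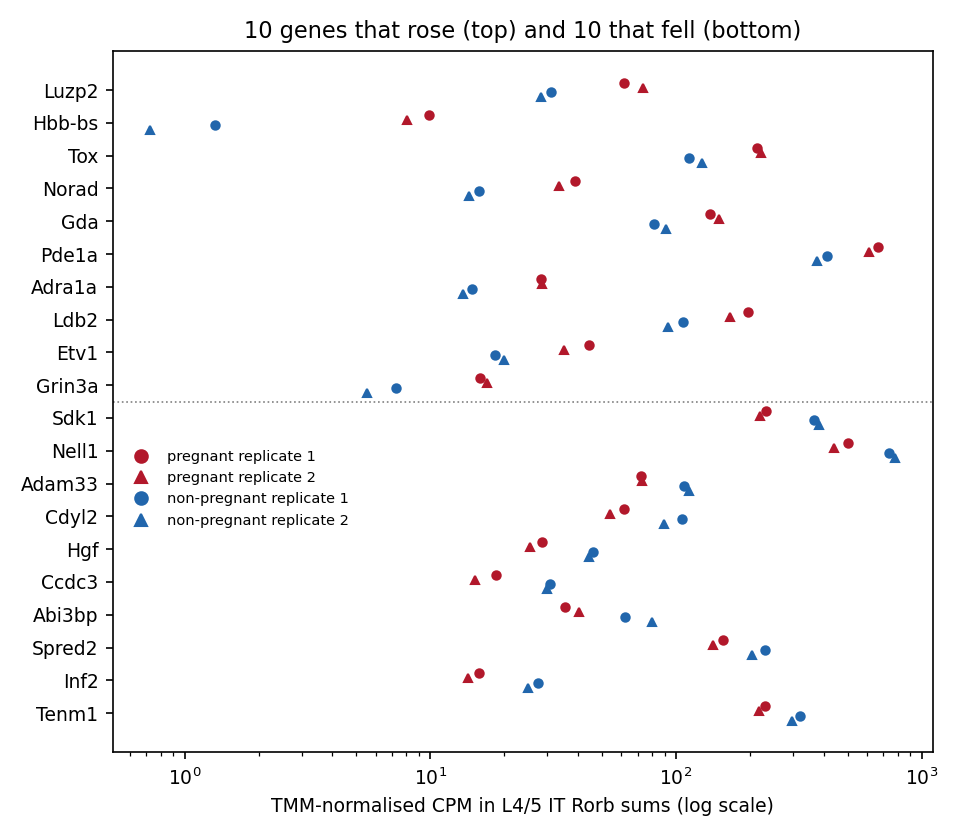
TMM-normalised CPM (x axis, log scale) per library in L4/5 IT Rorb sums for 10 risen and 10 fallen genes, those of smallest p on each side; each point is a library. The 2 pregnant points lie right of both non-pregnant points for the 10 upper genes, such as Tox at 214 and 223 against 113 and 128 CPM, and left of them for the 10 lower genes.

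Haemoglobin and mitochondrial transcripts were higher in the pregnant sums. Hbb-bs, an adult beta-globin gene of red cells, stood at 9.89 and 8.06 CPM in pregnant libraries, against 1.32 and 0.725 CPM in non-pregnant libraries (log2 fold change 3.22, adjusted p = 6.08e-04). These values came from 93 and 76 UMIs in pregnant and 16 and 16 UMIs in non-pregnant libraries. Hba-a1, Hba-a2 and Hbb-bt rose as well, by 3.22, 2.78 and 3.49 on the log2 scale, and the split of counts between near-identical globin copies is uncertain. Hba-a2 and Hbb-bt did not pass without pregnant replicate 1, pregnant replicate 2 or non-pregnant replicate 2, with adjusted p of 0.0572 to 0.479, and Hba-a1 did not without pregnant replicate 1 (0.0702). The fifth gene of the red cell list, Alas2, had 4.79 and 5.41 CPM in pregnant libraries, against 5.22 and 6.03 CPM in non-pregnant libraries, and did not pass. Haemoglobin genes summed to 33.6 and 58.0 CPM in pregnant and 10.9 and 2.29 CPM in non-pregnant nuclei that were not excitatory. Mitochondrial transcripts summed to 50.5 and 76.8 CPM in pregnant and 22.6 and 29.7 CPM in non-pregnant L4/5 IT Rorb sums, and to 50.4 and 74.8 CPM in pregnant and 27.6 and 31.6 CPM in non-pregnant other excitatory sums. The mitochondrial gene mt-Nd4, a subunit of respiratory complex I, was called, with a log2 fold change of 1.53. The part of free RNA or of other cells in these values was not tested.

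Oligodendrocyte markers had higher values in pregnant libraries in 8 of 8 tested genes, with a median log2 fold change of 0.64 against 0.00 over all genes. Of the 8, 1 passed the threshold, as did 0.554% of all genes tested. Their summed level ran from 131 to 147 CPM in pregnant and from 85.9 to 122 CPM in non-pregnant L4/5 IT Rorb sums, and all 8 were lowest in non-pregnant replicate 2. In nuclei that were not excitatory the order was the other way, at 776 and 789 CPM in pregnant and 1049 and 1199 CPM in non-pregnant libraries. Aspa and St18, an enzyme and a transcription factor known from oligodendrocytes, also rose, by 1.55 and 1.12 on the log2 scale, and were picked after their values were seen. Without the highest doublet scores, 0 of 6 markers tested passed by edgeR (1 at an unadjusted p under 0.05), St18 did not pass (1.57, adjusted p = 0.727) and Aspa was not tested. In nuclei without Rspo1, the log2 fold change of St18 was -0.0031. The part of oligodendrocyte RNA in these values was not tested.

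Markers of excitatory classes gave 2 calls, beside 0.554% called over all genes tested. Of 4 L5/6 NP markers tested, 1 rose, Nxph2, a neurexophilin ligand of neurexins, at 3.19 and 3.07 CPM in pregnant libraries, against 0.331 and 0.453 CPM in non-pregnant libraries (log2 fold change 2.91, adjusted p = 0.00609). The Nxph2 values came from 30 and 29 UMIs in pregnant and 4 and 10 UMIs in non-pregnant libraries. The median of the 4 L5/6 NP markers was 1.72. Of 4 L5 IT markers 1 rose, Etv1. Of 8 L2/3 IT, 6 L5 ET, 5 L6 IT and 4 L6 CT markers 0 passed, with medians of 0.03, 0.48, 0.62 and 0.32. Of 11 L4/5 IT identity genes 0 passed, with a median of -0.18. Within this list, Whrn had 51.9 and 55.0 CPM in pregnant libraries, against 74.3 and 57.3 CPM in non-pregnant libraries (-0.29, adjusted p = 0.487), and Rspo1 had 28.4 and 28.5 CPM in pregnant libraries, against 35.2 and 31.1 CPM in non-pregnant libraries (-0.21, adjusted p = 0.640). Both identity markers had non-overlapping groups, as had 38.4% of all genes tested, and neither difference passed. Of 7 astrocyte, 6 microglia, 7 inhibitory neuron, 4 Car3, claustrum and L6b, 3 thalamic, 2 OPC and 1 vessel marker tested, 0 passed. Their medians were 0.83, -0.13, 0.10, 0.48, 1.17, 1.08 and 0.80 in that order, and 3 of the 7 astrocyte, 2 of the 3 thalamic and 1 of the 2 OPC markers had an unadjusted p under 0.05. Over all 23 lists without a call, 52 of 270 tested genes, some of them in more than 1 list, had an unadjusted p under 0.05 by edgeR, and DESeq2 called 2. Over all genes tested, 1299 of 14811 had an unadjusted p under 0.05 by edgeR.

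Receptors for transmitters gave few calls, and over all genes tested 0.554% were called. Of 17 ionotropic glutamate receptor genes 1 rose, Grin3a, and 0 fell. Of 7 metabotropic glutamate receptor genes 1 rose, Grm8, and 0 fell. Of 9 serotonin receptor genes 0 rose and 1 fell, Htr2c. The serotonin receptor Htr2c stood at 5.42 and 5.73 CPM in pregnant libraries, against 12.2 and 10.1 CPM in non-pregnant libraries (log2 fold change -0.99, SE 0.186, adjusted p = 0.0364). It did not pass by DESeq2 (adjusted p = 0.123), with other Rorb or Tshz2 limits, after thinning or without either pregnant library, and its log2 fold change was below 0 in each. Of 12 GABA-A receptor subunit genes 0 passed (5 at an unadjusted p under 0.05, and 0 by DESeq2), with a median of 0.09. The nearest, Gabrg1, had 7.98 and 5.62 CPM in pregnant libraries, against 3.23 and 1.77 CPM in non-pregnant libraries (1.52, adjusted p = 0.0573).

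Among genes of axon guidance, 1 of 37 rose and 2 fell, beside 0.358% that rose and 0.196% that fell over all genes tested. Sema3c, a secreted semaphorin, stood at 13.6 and 15.9 CPM in pregnant libraries, against 7.78 and 6.71 CPM in non-pregnant libraries (log2 fold change 1.04, adjusted p = 0.0156). Plxnd1, a plexin receptor of semaphorins, stood at 28.6 CPM in both pregnant libraries, against 47.4 and 41.2 CPM in non-pregnant libraries (-0.62, adjusted p = 0.0240). Slit2, a secreted ligand of Robo receptors, stood at 283 and 267 CPM in pregnant libraries, against 346 and 399 CPM in non-pregnant libraries (-0.44, adjusted p = 0.0400). None of the 3 passed without pregnant replicate 2, Plxnd1 did not without pregnant replicate 1, and Slit2 did not without non-pregnant replicate 2. Of 20 cadherin genes 0 passed by edgeR, 6 had an unadjusted p under 0.05 and DESeq2 called 2, Cdh7 and Cdh13, with a median of 0.17 over the 20. Of 13 R-spondin and Wnt receptor genes 0 passed, with a median of 0.01.

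Receptors and targets of hormones, which change in the blood during pregnancy, gave no call. Of 12 hormone receptor genes 0 passed (1 at an unadjusted p under 0.05, and 0 by DESeq2), with a median of 0.08. Of 10 glucocorticoid-induced genes 0 passed, with a median of 0.12. Tsc22d3, the glucocorticoid-induced leucine zipper gene, had 4.36 and 5.09 CPM in pregnant libraries, against 2.32 and 2.27 CPM in non-pregnant libraries (log2 fold change 1.04, adjusted p = 0.122).

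Of 26 activity-induced genes, which neurons switch on after firing, 0 passed, 1 had an unadjusted p under 0.05 and DESeq2 called 0, while 25 had fold changes above 0 and their median log2 fold change was 0.66 against 0.00 over all genes. In all 26 the lowest library was non-pregnant replicate 2. Bdnf, a neurotrophin, had 55.7 and 65.4 CPM in pregnant libraries, against 52.3 and 23.7 CPM in non-pregnant libraries. Fosb, an AP-1 factor, had 4.89 and 6.68 CPM in pregnant libraries, against 4.97 and 0.272 CPM in non-pregnant libraries, so its groups overlapped. Groups did not overlap for 3 of the 26, against 38.4% of all genes tested. Without non-pregnant replicate 2 the median was -0.15, and without non-pregnant replicate 1 it was 2.20.

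Lists of channels and of cell functions were mostly without calls, and over all genes tested 0.554% were called. Of 29 potassium channel and 21 sodium and calcium channel genes 0 passed, with medians of 0.03 and -0.04. Of 24 synaptic release, 18 clock and 21 cholesterol synthesis genes 0 passed, with medians of -0.02, -0.04 and 0.06. Of 25 layer transcription factors 1 rose, Etv1, and of 12 area transcription factors 1 rose, Tox. Of 13 long noncoding RNAs 1 rose, Norad. Of 17 translation and ribosomal protein genes 1 rose, Eef1a1, a translation elongation factor (log2 fold change 0.63, adjusted p = 0.0279), and 15 had fold changes above 0, with a median of 0.23. The lowest library was non-pregnant replicate 2 for 16 of these 17, and their median without it was 0.05. Eef1a1 did not pass without either pregnant library or by DESeq2 (adjusted p = 0.0533). In all, 23 of the 35 lists had no call.

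To ask where the pregnancy effect in L4/5 IT Rorb nuclei differed from that in other excitatory nuclei of the same libraries, edgeR was used to test the difference of the 2 effects by quasi-likelihood, with the library as a block. Of 18614 genes, 197 passed (1.06%), of which 88 were above 0 (0.473%) and 109 below 0 (0.586%). Among these 197, 9 were also called in L4/5 IT Rorb sums and 71 in other excitatory sums, where 2.44% of genes tested were called. In 137 of the 194 with a value in both, the larger change was in other excitatory nuclei. Tshz2, a gene of the rule, stood in other excitatory sums at 391 and 398 CPM in pregnant libraries, against 64.5 and 44.4 CPM in non-pregnant libraries. In nuclei that were not excitatory it stood at 422 and 416 CPM in pregnant libraries, against 102 and 89.7 CPM in non-pregnant libraries. Whether the kinds of nuclei, their Tshz2 level or the area dissected differed was not tested. Without other excitatory nuclei of more than 4 Tshz2 UMIs, 42 genes passed, 39 of them among the 197.

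Htr2c had the largest difference of the genes named. In L4/5 IT Rorb sums its pregnant values were the lower ones, as given above. In other excitatory sums it stood at 54.3 and 47.7 CPM in pregnant libraries, against 10.2 and 7.07 CPM in non-pregnant libraries. Its effects were -0.99 in L4/5 IT Rorb and 2.57 in other excitatory sums, and the fitted difference was -3.60 (SE 0.157, adjusted p = 2.15e-09). Without the other excitatory nuclei of more than 4 Tshz2 UMIs the difference was -1.30 (adjusted p = 0.00586).

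Among genes whose difference lay above 0, Csgalnact1, an enzyme of chondroitin sulfate synthesis, rose in L4/5 IT Rorb sums (0.53, adjusted p = 0.0164 by edgeR), at 104 and 91.3 CPM in pregnant libraries, against 67.2 and 68.9 CPM in non-pregnant libraries. In other excitatory sums it stood at 176 and 169 CPM in pregnant libraries, against 185 and 194 CPM in non-pregnant libraries, and the difference was 0.66 (adjusted p = 7.63e-05). Kcnc2, the potassium channel Kv3.2, stood at 395 and 372 CPM in pregnant and 333 CPM in both non-pregnant L4/5 IT Rorb sums. In other excitatory sums Kcnc2 stood at 291 and 275 CPM in pregnant libraries, against 356 and 386 CPM in non-pregnant libraries, and the difference was 0.60 (adjusted p = 5.27e-05). Sorcs3, a sorting receptor of the postsynaptic side, had effects of 0.21 in L4/5 IT Rorb and -0.43 in other excitatory sums, a difference of 0.65. Greb1l, Cpne5 and Atp2b4, the last a plasma membrane calcium pump, had differences of 0.72, 0.87 and 0.94.

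Among genes whose difference lay below 0, Satb1, a chromatin-organising transcription factor, stood at 188 and 204 CPM in pregnant and 236 and 248 CPM in non-pregnant L4/5 IT Rorb sums. In other excitatory sums Satb1 stood at 130.4 and 129 CPM in pregnant libraries, against 105 and 106 CPM in non-pregnant libraries, and the difference was -0.60 (adjusted p = 7.66e-05). Kazn, a desmosome-associated protein, had effects of -0.12 in L4/5 IT Rorb and 0.61 in other excitatory sums. Fras1, an extracellular matrix protein, had effects of -0.46 and 0.24, Zmat4, a zinc finger protein, -0.15 and 0.52, and Pex5l, a regulator of HCN channels, -0.15 and 0.38. Zmat4 and Satb1 did not pass once other excitatory nuclei of more than 4 Tshz2 UMIs were left out (adjusted p = 0.361 and 0.102).

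**Figure D5:**
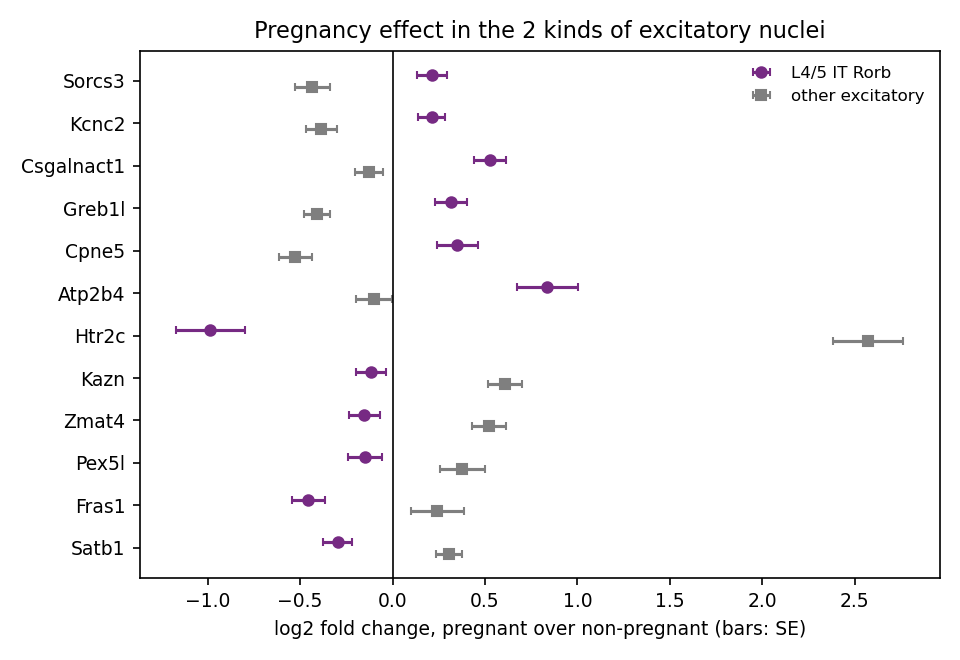
Effect of pregnancy as log2 of pregnant over non-pregnant (x axis) in L4/5 IT Rorb (circles) and other excitatory (squares) sums for the 12 genes named from the test of the difference. Bars are SE, the absolute log2 fold change divided by the square root of the edgeR F statistic for each kind of sum. The effects lie on opposite sides of 0 for all 12 genes, and Htr2c lies furthest apart, at -0.99 and 2.57.

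Of the 82 genes called in L4/5 IT Rorb sums, 9 also had a called difference from other excitatory nuclei. Besides Htr2c and Csgalnact1 they included Grm8 (difference 0.42, adjusted p = 0.00335) and Nell1 (-0.35, adjusted p = 0.00335), whose changes were larger in L4/5 IT Rorb sums. Grm8 had a log2 fold change of 0.91 in L4/5 IT Rorb sums and 0.48 in other excitatory sums, and Nell1 -0.69 and -0.35. For Adam33 the change was larger in other excitatory sums, with -0.61 in L4/5 IT Rorb sums against -1.23 (difference 0.62, adjusted p = 0.0402). Igsf21 and Sdk2, immunoglobulin-domain proteins of synapses, rose by 1.29 and 0.97 on the log2 scale in L4/5 IT Rorb sums, against 0.22 and 0.26 in other excitatory sums. In L4/5 IT Rorb sums neither passed with a Rorb minimum of 5 UMIs, in nuclei with Rspo1, with equal nuclei per library or after thinning. These 2 were picked after their values were seen, and the other 2 of the 9 are predicted genes. For Tox, Norad, Etv1 and Sdk1 the difference did not pass.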

How the data were processed

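The deposited matrices hold whole-number UMI counts per gene and barcode; per the submitters' processing notes, the authors used Cell Ranger 10.0.0 and the mouse build GRCm39. Barcodes with at least 500 genes and at most 5% mitochondrial UMIs were kept. The nuclei and gene lists were chosen with earlier results of these data known. Raw counts were summed per library over the nuclei of the rule and over other excitatory nuclei, and tested in R 4.3.3 with edgeR 4.0.16 (robust quasi-likelihood test, TMM, filterByExpr at a minimum count of 10, adjustment by Benjamini-Hochberg over all genes tested, threshold 0.05). The fit was tested on simulated data. DESeq2 1.42.0, other limits of the rule, thinning to 10000 UMIs, leaving out each library and a replicate block were alternatives. Doublets stayed in; an alternative left out the highest 5% of scores against simulated doublets in each library. Free RNA was not subtracted. P-values rest on the spread between these libraries, 2 per group, and edgeR estimated that spread with information shared across genes, not from each gene alone. Intervals cover counting error only.

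Named in the pregnancy test were, in each direction, the 10 genes of smallest p with non-overlapping groups. In the test of the difference they were the 6 with the smallest p in each direction. As a description they were the 15 with the largest lowest ratio over other excitatory sums and the 8 in each direction by Rspo1 detection, at 20 CPM or more. Up to 4 genes per list were named too. Predicted genes were counted, not named, and some members of the lists are not reported here by name. No pairing was used. The list symbols Fam84b and Bmal1 did not match a gene name in the files; Arntl is another name of Bmal1.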

Additional observations from a re-analysis of the deposited data

Results flagged for a closer look

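For 12 genes the effect of pregnancy differed between L4/5 IT Rorb and other excitatory nuclei by a test of the difference itself. The log2 difference was 0.65 for Sorcs3, 0.60 for Kcnc2, 0.66 for Csgalnact1, 0.72 for Greb1l, 0.87 for Cpne5 and 0.94 for Atp2b4. It was -3.60 for Htr2c, -0.72 for Kazn, -0.67 for Zmat4, -0.53 for Pex5l, -0.69 for Fras1 and -0.60 for Satb1. Of the 12, Csgalnact1 and Htr2c were also called within L4/5 IT Rorb sums. The rule limits Tshz2 in L4/5 IT Rorb nuclei only. Without other excitatory nuclei of more than 4 Tshz2 UMIs, 10 of the 12 kept their call. Zmat4 and Satb1 did not (adjusted p = 0.361 and 0.102 by edgeR), and the difference of Htr2c was -1.30.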

How the results depend on the processing

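Of the settings tried on the 82 called genes, 3 besides leaving out libraries moved the count by more than 1.5 times. Without a filter on low counts 416 genes were called, all 82 among them, and with a Rorb minimum of 12 UMIs 36 were called, all among the 82. With the replicate block 161 were called, again all 82 among them; same-numbered samples share only a number in the labels, and the correlation of their deviations was -0.0391. Leaving out each library gave 29 to 448. DESeq2 called 78, RLE size factors 80, and the remaining settings 61 to 109. Of the 37 called genes named in the text, 10 did not pass with a Rorb minimum of 5 UMIs, 13 with one of 12, 13 in nuclei with Rspo1, 10 in those without, 8 after thinning and 6 with equal nuclei per library. Every called gene that could be tested kept its direction in every setting, except that St18 had a log2 fold change of -0.0031 in nuclei without Rspo1.

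For the difference from other excitatory nuclei, 511 genes were called with no filter, 333 with a Rorb minimum of 5 UMIs, 316 against other excitatory nuclei of at most 3 Rorb UMIs, and 42 against those of at most 4 Tshz2 UMIs. Leaving out each library gave 106 to 337. The share's log2 ratio ran from -1.24 to -0.47 with each library left out, and from -0.91 to -0.81 over other limits. The cause of these changes was not tested. With 2 libraries per group the exact test of the share cannot pass 0.05, and genes near 1 CPM rest on few UMIs, such as 12 and 15 of Hbb-bt in pregnant and 3 and 1 in non-pregnant sums.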
